A study of Sus scrofa with 3 samples.

Results

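The HOX cluster genes are the entries of the deposited gene table whose name is HOX, a cluster letter (A to D) and a number. There were 36 of them among 30477 genes, 8 in HOXA, 10 in HOXB, 9 in HOXC and 9 in HOXD. They were measured by RNA-seq in 3 cultures of mesenchymal stem cells (MSC) derived from adipose tissue of adult pigs (Sus scrofa) and grown in advanced MEM with human platelet lysate. The labels give a single group, with no strain, sex, fat depot, passage or treatment, and do not say whether the cultures came from separate animals. Differences between the cultures may therefore be partly technical. Its title places it in a study of MSC given to arteriovenous fistulas, the vessels joined for hemodialysis access. With a single group, the questions are which HOX genes were on and how much that varied among cultures.

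HOX genes encode homeodomain transcription factors that give cells along the body axis their regional identity. In each cluster the genes lie in the order of their paralogue number, and low numbers are used towards the head and high numbers towards the tail and the limb tips. Cultured stromal cells and fibroblasts are known to keep part of the HOX pattern of the place they came from, so the set of active HOX genes is often read as a record of position. In this account the paralogue groups 1 to 3 are called anterior, 4 to 8 central and 9 to 13 posterior.

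Reads counted over genes numbered 51788677, 62248183 and 64774044 in cultures 1, 2 and 3. Values are RPKM, in which the reads of a gene are divided by its model's length and by the library's counted reads, and 1 RPKM over a model of 2 kb is 104, 124 and 130 reads. The library of culture 1 stood apart in composition, with 28.3% of its reads over small RNA genes, against 9.12% and 8.36% in cultures 2 and 3. Culture 3, the deepest library, had reads in 24503 genes, against 28310 and 28395 in cultures 1 and 2. The part of this difference in the values of members with few reads was not tested. Of 7 surface markers of MSC on the list used here 6 lay above 1 RPKM, and ALCAM (mean 0.188 RPKM) lay below. The 7 markers summed to 232, 506 and 452 RPKM in cultures 1, 2 and 3. The background for this and the following marker counts was 42.0% above and 47.8% below, the shares among protein-coding genes. Of 7 blood cell markers 5 lay below, and of the 2 above, CD79A and CD14, CD79A overlaps DMRTC2 and ARHGEF1. Endothelial markers were below in 4 of 5, all but PECAM1, which overlaps DDX5, and epithelial markers in 3 of 3. Of 4 neural markers 2 were below and 2, NES and TUBB3, were not decided. Culture 2 stood apart in these, with summed neural markers at 7.68 RPKM, against 0.545 and 1.30 RPKM in cultures 1 and 3, most of it NES (6.28 RPKM).

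The clusters lie on separate chromosomes of the build susScr11. HOXA lies on chromosome 18 and HOXB on chromosome 12 from 24784953 to 24950637 (166 kb). HOXC lies on chromosome 5 from 19151169 to 19268257 (117 kb) and HOXD on chromosome 15 from 81894121 to 81990807 (96.7 kb). The names are those of the deposited table, and 33 of the 36 gene IDs carry the same symbol in a separate table of IDs and symbols. All 33 HOX symbols that the table shares with RefSeq's annotation of Sscrofa11.1 overlap their namesake. RefSeq holds 3 HOX genes that are not named in the deposited table, HOXA4, HOXA6 and HOXA9, and these are treated separately at the end of the HOXA account.

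All 4 clusters were active at low level, and in each of them the genes that reached 1 RPKM were neighbours in the middle of the cluster. The uninterrupted runs were HOXA5 to HOXA11 (4 members named in the table), HOXB6 to HOXB7 (2 members), HOXC6 to HOXC10 (4 members) and HOXD3 to HOXD9 (4 members). The HOXA and HOXB runs rested on culture 1, without which HOXA7 averaged 0.624 RPKM and HOXB6 0.744 RPKM, so that the HOXA run was broken at HOXA7 and HOXB7 stood alone. These 14 genes, whose mean was at least 1 RPKM, carried 89.5%, 88.3% and 89.7% of the summed HOX RPKM in cultures 1, 2 and 3. The genes towards either end of every cluster were below that level. HOXD8 was the highest member, followed by HOXC8, HOXC6, HOXC9 and HOXA5.

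Each gene was set against 1 RPKM, a common limit for calling a gene expressed, in a limma fit across 29479 genes with a read, with Benjamini-Hochberg adjustment and a threshold of 0.05. Of the 36 HOX genes 6 (16.7%) lay above, where 30.6% of all genes did. Below lay 22 (61.1%), a share close to the 60.8% of all genes. The remaining 8 (22.2%) were not decided, against 8.62% of all genes. The median of the HOX genes was 0.65 below 1 RPKM on the scale of log2(RPKM + 0.5), against 1.27 below for all genes with a read and 0.25 below for protein-coding genes with a read. Among those protein-coding genes, 42.0% lay above and 47.8% below. Together the HOX genes took 7804, 7943 and 9134 reads, 0.0151%, 0.0128% and 0.0141% of the library.

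**Figure D1:**
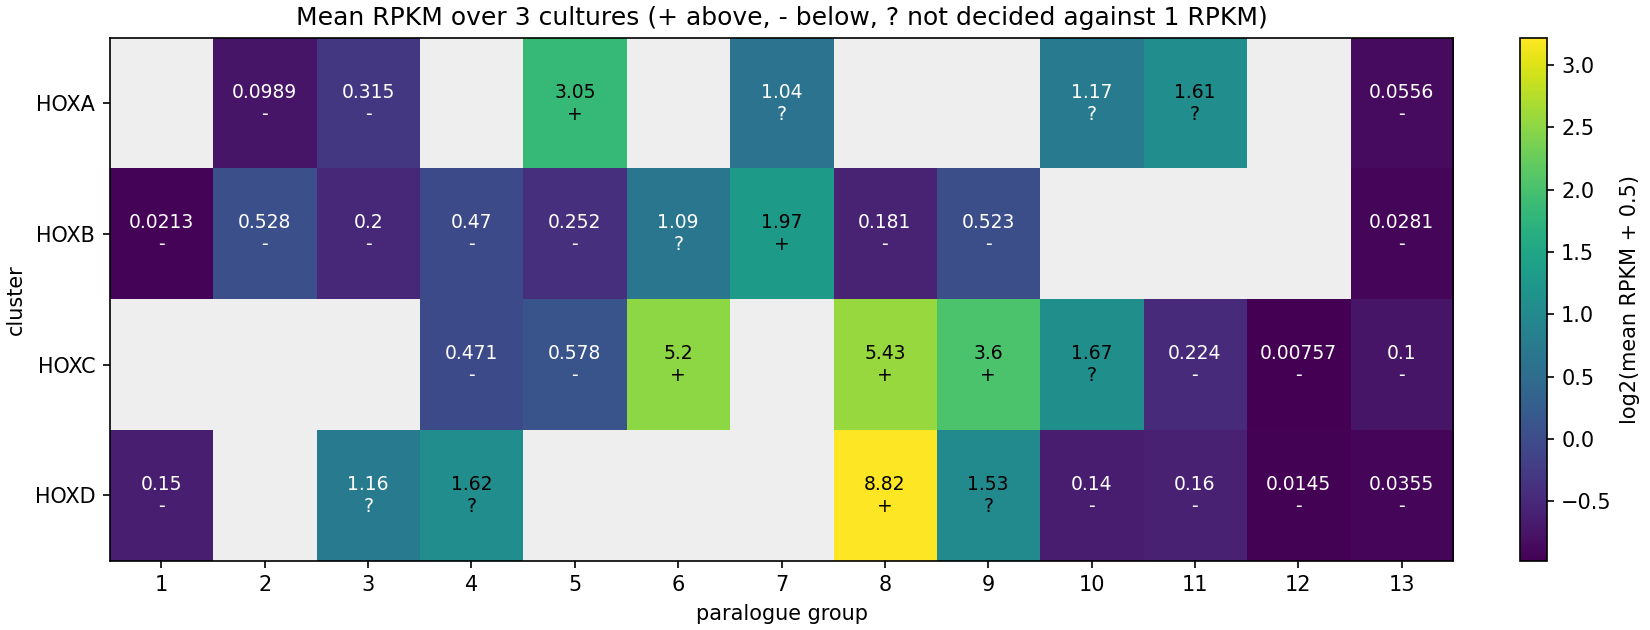
Mean RPKM of HOX genes over 3 cultures, by cluster (rows) and paralogue group (columns); colour is log2(mean RPKM + 0.5), grey cells hold no value, and the sign gives the limma call against 1 RPKM. The 6 genes called above are HOXA5, HOXB7, HOXC6, HOXC8, HOXC9 and HOXD8.

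By position, the central groups held most of the expressed genes. Of 13 central genes 5 (38.5%) lay above 1 RPKM and 5 below, of 8 anterior genes 0 lay above and 7 below, and of 15 posterior genes 1 lay above and 10 below. Among all protein-coding genes with a read 42.0% were above, so the central share was near that background. Central genes carried 70.9%, 67.9% and 67.9% of the summed HOX RPKM in cultures 1, 2 and 3. Posterior genes carried 24.7%, 25.0% and 25.0%, nearly all of it from groups 9 to 11, and anterior genes 4.36%, 7.16% and 7.09%. HOXA9, a posterior gene that the deposited table does not name, is in none of these counts and shares. It was called above 1 RPKM, with 7.26, 5.61 and 5.94 RPKM, where the 15 posterior genes summed to 12.8, 9.58 and 10.3 RPKM. With HOXA9 the posterior share would be higher and the central share lower. Paralogue group 8 alone, with HOXB8, HOXC8 and HOXD8, summed to 19.1, 12.1 and 12.1 RPKM. Group 9 summed to 6.81, 5.09 and 5.05 RPKM, a sum that leaves out HOXA9.

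HOXC was the cluster of highest summed level, with 20.3, 16.0 and 15.5 RPKM in cultures 1, 2 and 3 (39.3%, 41.8% and 37.9% of the HOX sum). HOXD followed with 15.8, 11.8 and 13.3 RPKM. HOXA had 7.41, 6.49 and 8.65 RPKM and HOXB 8.20, 4.06 and 3.54 RPKM. The order of HOXA and HOXB thus differed between cultures, with HOXB the higher of the pair only in culture 1. Among the genes named in the table HOXC and HOXD kept their places in 3 of 3 cultures, but HOXD did not once HOXA9, described with HOXA, was added to the HOXA sum.

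**Figure D2:**
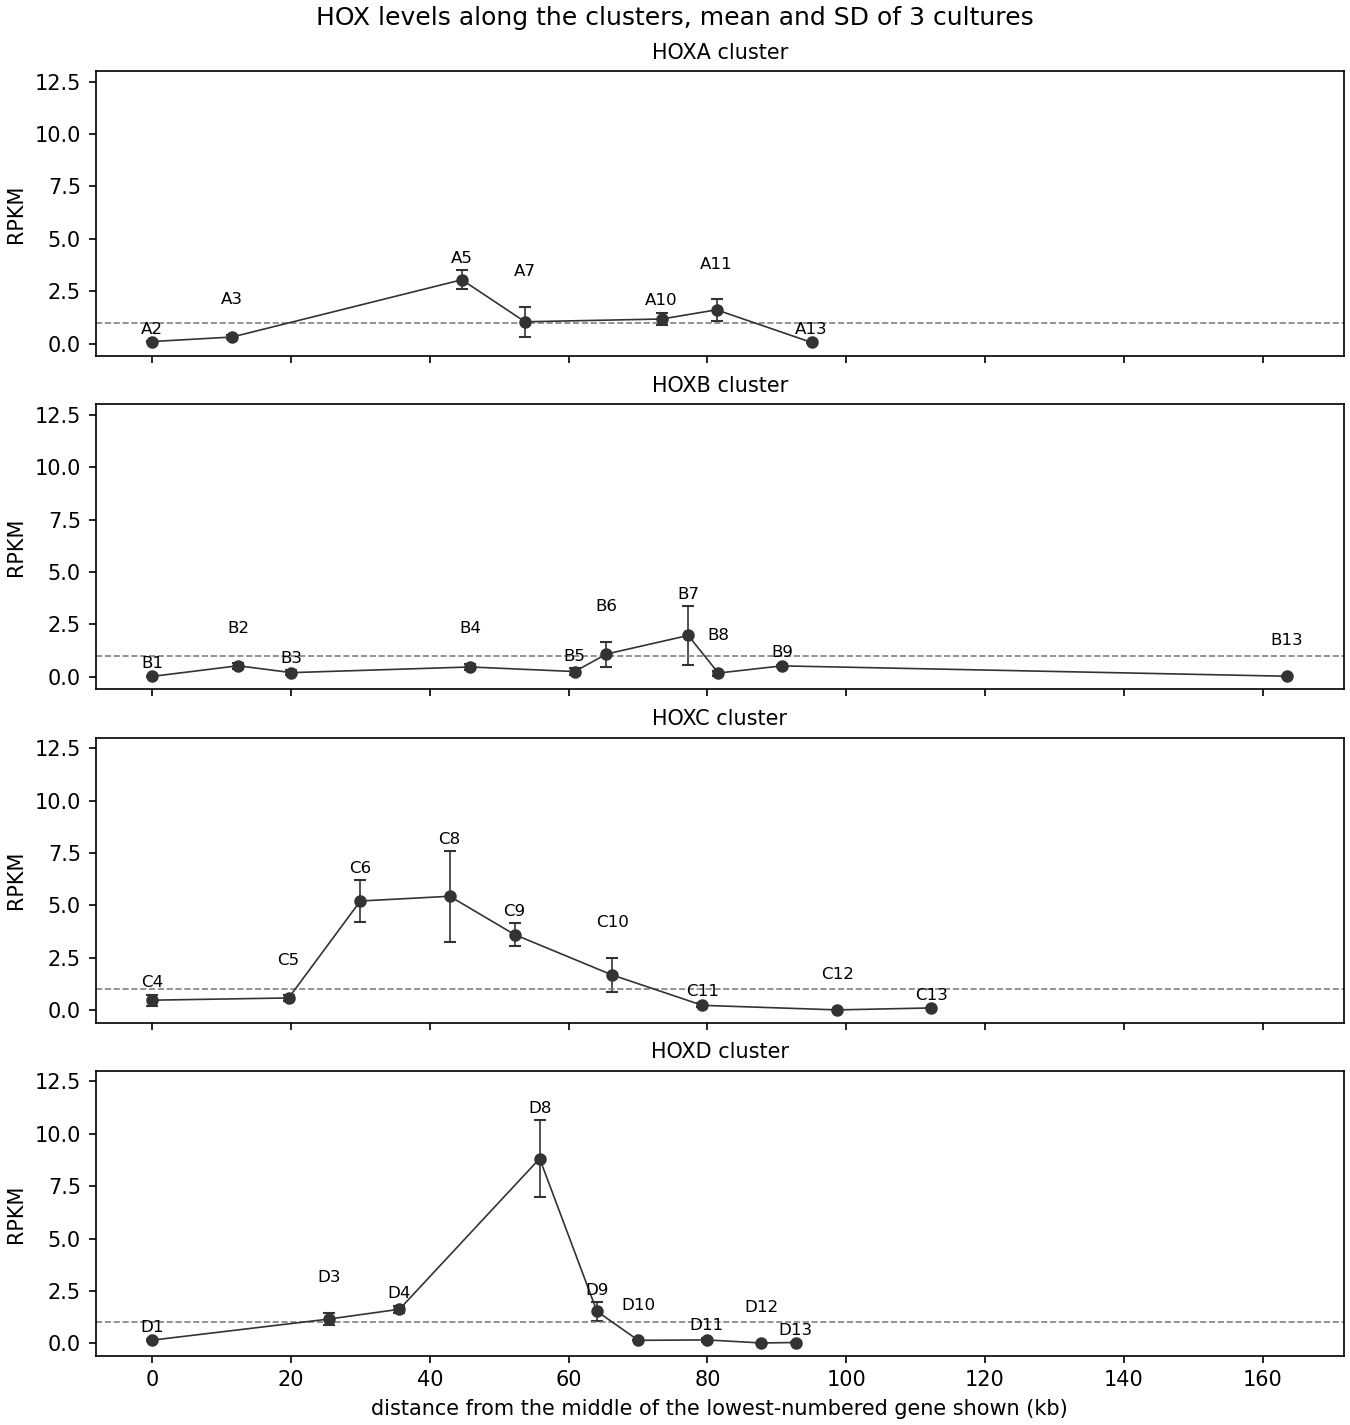
Mean RPKM (points) with the SD of 3 cultures (bars) against the distance in kb from the middle of the lowest-numbered gene shown in each cluster, with a dashed line at 1 RPKM. The levels of the named genes peak in the middle of each cluster, at HOXA5 (3.05), HOXB7 (1.97), HOXC8 (5.43) and HOXD8 (8.82), and lie under 1 RPKM at both ends.

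In HOXD, a cluster known for its part in limb and trunk patterning, HOXD8 stood out. HOXD8 (ENSSSCG00000040349, chromosome 15, 81931383 to 81935529) had 10.9, 7.32 and 8.26 RPKM in cultures 1, 2 and 3, a mean of 8.82 ± 1.84 (SD, n = 3). Its lowest culture was above every culture of every other member except HOXC8 in culture 1 (7.89 RPKM). It lay above 1 RPKM in 3 of 3 cultures (limma, adjusted p = 4.1e-12), by 2.62 on the scale of log2(RPKM + 0.5), and its mean stood above that of 81.7% of protein-coding genes.

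The level fell on either side of HOXD8, and the posterior step was of similar size in each culture. Its posterior neighbour HOXD9, whose middle lies 8.25 kb away, had 2.04, 1.21 and 1.33 RPKM (1.53 ± 0.447, SD, n = 3) and was not decided against 1 RPKM (limma, adjusted p = 0.12). On the log2(RPKM + 0.5) scale HOXD9 was 2.20 ± 0.05 below HOXD8 (SD, n = 3). HOXD10 came next with 0.144, 0.137 and 0.140 RPKM, a further 1.64 ± 0.30 lower, from 14, 16 and 17 reads. The highest mean among the members outside the run from HOXD3 to HOXD9 was 0.160 RPKM.

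On the anterior side the step was less even, and HOXD8 was 7.48, 4.53 and 4.58 times HOXD4 in cultures 1, 2 and 3. HOXD4 had 1.45, 1.62 and 1.80 RPKM (1.62 ± 0.174) and HOXD3 0.839, 1.20 and 1.43 (1.16 ± 0.297, SD, n = 3 each). Neither was decided in the limma test (adjusted p = 0.059 and 0.63). Without culture 1 HOXD4 was called above (limma, adjusted p = 0.031), but not without culture 2 (0.18) or without culture 3 (0.25). The bodies of the 2 genes share 626 bases, and without a known strand reads there cannot be told apart. HOXD1, the anterior end of the cluster, had 0.0917, 0.194 and 0.164 RPKM.

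The far posterior genes of HOXD, which pattern digits and the genital tubercle, were close to silent. HOXD11 had 13, 3 and 12 reads, HOXD12 1, 1 and 0, and HOXD13 14, 7 and 3. All 3 lay below 1 RPKM, with the largest adjusted p in limma 1.9e-09.

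HOXC held 3 of the 6 genes above 1 RPKM. They were 33.3% of its 9 members, where 30.6% of all genes and 42.0% of protein-coding genes lay above. HOXC8 (ENSSSCG00000038644, chromosome 5, 19221760 to 19225846), a gene of thoracic identity, had 7.89, 4.59 and 3.81 RPKM (5.43 ± 2.17). HOXC6 (ENSSSCG00000030585, chromosome 5, 19229871 to 19243512), expressed in the thorax and used as a forelimb-level landmark, had 4.15, 5.34 and 6.13 (5.20 ± 0.998, SD, n = 3 each). Their means were close but their order was not the same in all cultures, since HOXC8 was 1.90 times HOXC6 in culture 1, 0.859 times in culture 2 and 0.622 times in culture 3.

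HOXC9 (ENSSSCG00000034474, chromosome 5, 19212905 to 19215984), another thoracic gene, was more even at 4.24, 3.30 and 3.26 RPKM (3.60 ± 0.556, SD, n = 3). HOXC6, HOXC8 and HOXC9 lay above 1 RPKM in 3 of 3 cultures (limma, largest adjusted p 2.0e-06). HOXC10, known from the lumbar and hindlimb region, had 2.55, 1.57 and 0.897 RPKM (1.67 ± 0.831) and was not decided (limma, adjusted p = 0.094). Its value was highest in culture 1 and under 1 RPKM in culture 3.

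Beyond HOXC10 the level dropped to 0.301, 0.258 and 0.113 RPKM at HOXC11, which was 1.52 ± 0.38 lower on the log2(RPKM + 0.5) scale (SD, n = 3). HOXC12 had 1, 0 and 0 reads, within the 3 reads that a count of 0 allows. HOXC13, known for its role in hair and nail, had 6 reads in each culture. On the other side HOXC5 had 0.713, 0.564 and 0.456 RPKM and HOXC4 0.338, 0.293 and 0.782, so the boundary between HOXC5 and HOXC6 was a step of 2.40 ± 0.43 on the same log2 scale.

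In HOXA the run of genes averaging 1 RPKM or more reached further towards the posterior end than in the other clusters. HOXA5 (ENSSSCG00000016703, chromosome 18, 45421663 to 45432885), active in lung and thoracic mesoderm, was the only named HOXA gene above 1 RPKM, with 2.63, 2.99 and 3.52 RPKM (3.05 ± 0.450, SD, n = 3; limma, adjusted p = 2.5e-05). HOXA11, which patterns the forearm and the uterus, had 1.34, 1.28 and 2.21 RPKM (1.61 ± 0.519), and HOXA10 1.01, 0.989 and 1.52 (1.17 ± 0.298, SD, n = 3 each). HOXA7 had 1.88, 0.588 and 0.661 RPKM, high in culture 1 and under 1 RPKM in the others.

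None of HOXA7, HOXA10 and HOXA11 was decided in the limma test (adjusted p = 0.84, 0.58 and 0.081). Without culture 1 HOXA11 was called above (limma, adjusted p = 0.043), but not without culture 2 (0.12) or without culture 3 (0.48). HOXA10 and HOXA11 lie inside the body of an unnamed protein-coding entry (ENSSSCG00000034997, 3.06 ± 0.799 RPKM, SD, n = 3) that has 13.8% and 12.5% as many reads as they do. From HOXA11 to HOXA13, the gene of the autopod (hand and foot), the level dropped by 1.90 ± 0.40 on the log2(RPKM + 0.5) scale (SD, n = 3), to 0.0974, 0.0418 and 0.0276 RPKM. HOXA2 and HOXA3, genes of the hindbrain and neck, had means of 0.0989 and 0.315 RPKM. The step from HOXA3 to HOXA5 was 2.12 ± 0.01 on the same log2 scale (SD, n = 3), nearly equal in the 3 cultures. RefSeq's span of HOXA3 contains the whole HOXA5 entry, so HOXA3 reads given to HOXA5 may enlarge this step.

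The HOXA cluster holds genes that the deposited table does not name. ENSSSCG00000028997 (chromosome 18, 45408377 to 45411510), which the ID table names HOXA9, had 7.26, 5.61 and 5.94 RPKM (6.27 ± 0.871, SD, n = 3). It lay above 1 RPKM (limma, adjusted p = 3.7e-10), and its mean was above that of any named HOX gene but HOXD8. In single cultures HOXC8 (7.89 RPKM in culture 1) and HOXC6 (6.13 RPKM in culture 3) were also higher than HOXA9. With HOXA9 the HOXA sum was 14.7, 12.1 and 14.6 RPKM, against 15.8, 11.8 and 13.3 RPKM for HOXD, so HOXA was the higher of the pair in cultures 2 and 3. An unnamed entry that covers 93.4% of RefSeq's HOXA4 (ENSSSCG00000016704) had 0.550, 0.524 and 0.742 RPKM and was not decided (limma, adjusted p = 0.065). RefSeq's HOXA6 lies wholly inside the entry called HOXA5, so the reads given to HOXA5 may include those of HOXA6. The HOXA5 entry itself lies wholly inside RefSeq's span of HOXA3, so its reads may also include those of HOXA3.

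HOXB had the shortest run of genes averaging 1 RPKM or more, with 8 of its 10 genes (80%) called below. Among all genes with a read 60.8% were called below, and among protein-coding genes 47.8%. HOXB7 (ENSSSCG00000017538, chromosome 12, 24861174 to 24864620) had 3.59, 1.09 and 1.24 RPKM (1.97 ± 1.40), and HOXB6 1.78, 0.758 and 0.729 (1.09 ± 0.597, SD, n = 3 each). Both are trunk genes, and both were highest in culture 1, at 3.09 times the mean of cultures 2 and 3 for HOXB7 and 2.39 times for HOXB6. The call of HOXB7 above 1 RPKM (limma, adjusted p = 0.046) rested on culture 1, without which the adjusted p was 0.53. It was also lost with a pseudocount of 1 RPKM (0.066), median-of-ratios scaling (0.063), voom weights (0.062), a fit limited to genes averaging 0.1 RPKM or more (0.11) and a prior neither trended nor robust (0.17).

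The other HOXB genes had means between 0.0213 and 0.528 RPKM. From HOXB5 to HOXB6 the level was higher by 1.04 ± 0.20 on the log2(RPKM + 0.5) scale (SD, n = 3). HOXB2 had 0.679, 0.433 and 0.472 RPKM, HOXB4 0.616, 0.474 and 0.320, and HOXB9 0.529, 0.584 and 0.455. HOXB3, HOXB5 and HOXB8 had means of 0.200, 0.252 and 0.181 RPKM. HOXB1, a gene of the hindbrain, had 3, 0 and 0 reads, and HOXB13, of the tail and prostate, 6, 2 and 1. HOXB9 and HOXB13 lie inside the listed body of CALCOCO2, an autophagy receptor gene with 71.2 ± 2.49 RPKM (SD, n = 3), and HOXB8 overlaps it by 1482 of its 2781 bases. The table gives no exons, so how many CALCOCO2 reads they hold is not known.

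Some calls below 1 RPKM were lost with fewer cultures, at distances from 1 RPKM that changed little. Those of HOXB2 (limma, adjusted p = 0.17 and 0.11), HOXB4 (0.058 and 0.099), HOXB9 (0.085 and 0.115) and HOXC5 (0.18 and 0.24) were lost without culture 2 and without culture 3. On the log2(RPKM + 0.5) scale HOXB4 was -0.64 from 1 RPKM with all cultures, -0.65 without culture 2 and -0.52 without culture 3, and HOXC5 was -0.48, -0.48 and -0.40. Scaling to protein-coding reads also ended the calls of HOXB2, HOXB9 and HOXC5 (limma, adjusted p = 0.087, 0.074 and 0.17), and voom weights that of HOXC5 (0.083). Leaving out culture 2 also ended the call of HOXC4 (limma, adjusted p = 0.13), whose highest value is in culture 3. In the fit of the 3 cultures the adjusted p from limma ranged between 0.0053 for HOXC4 and 0.044 for HOXC5.

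**Figure D3:**
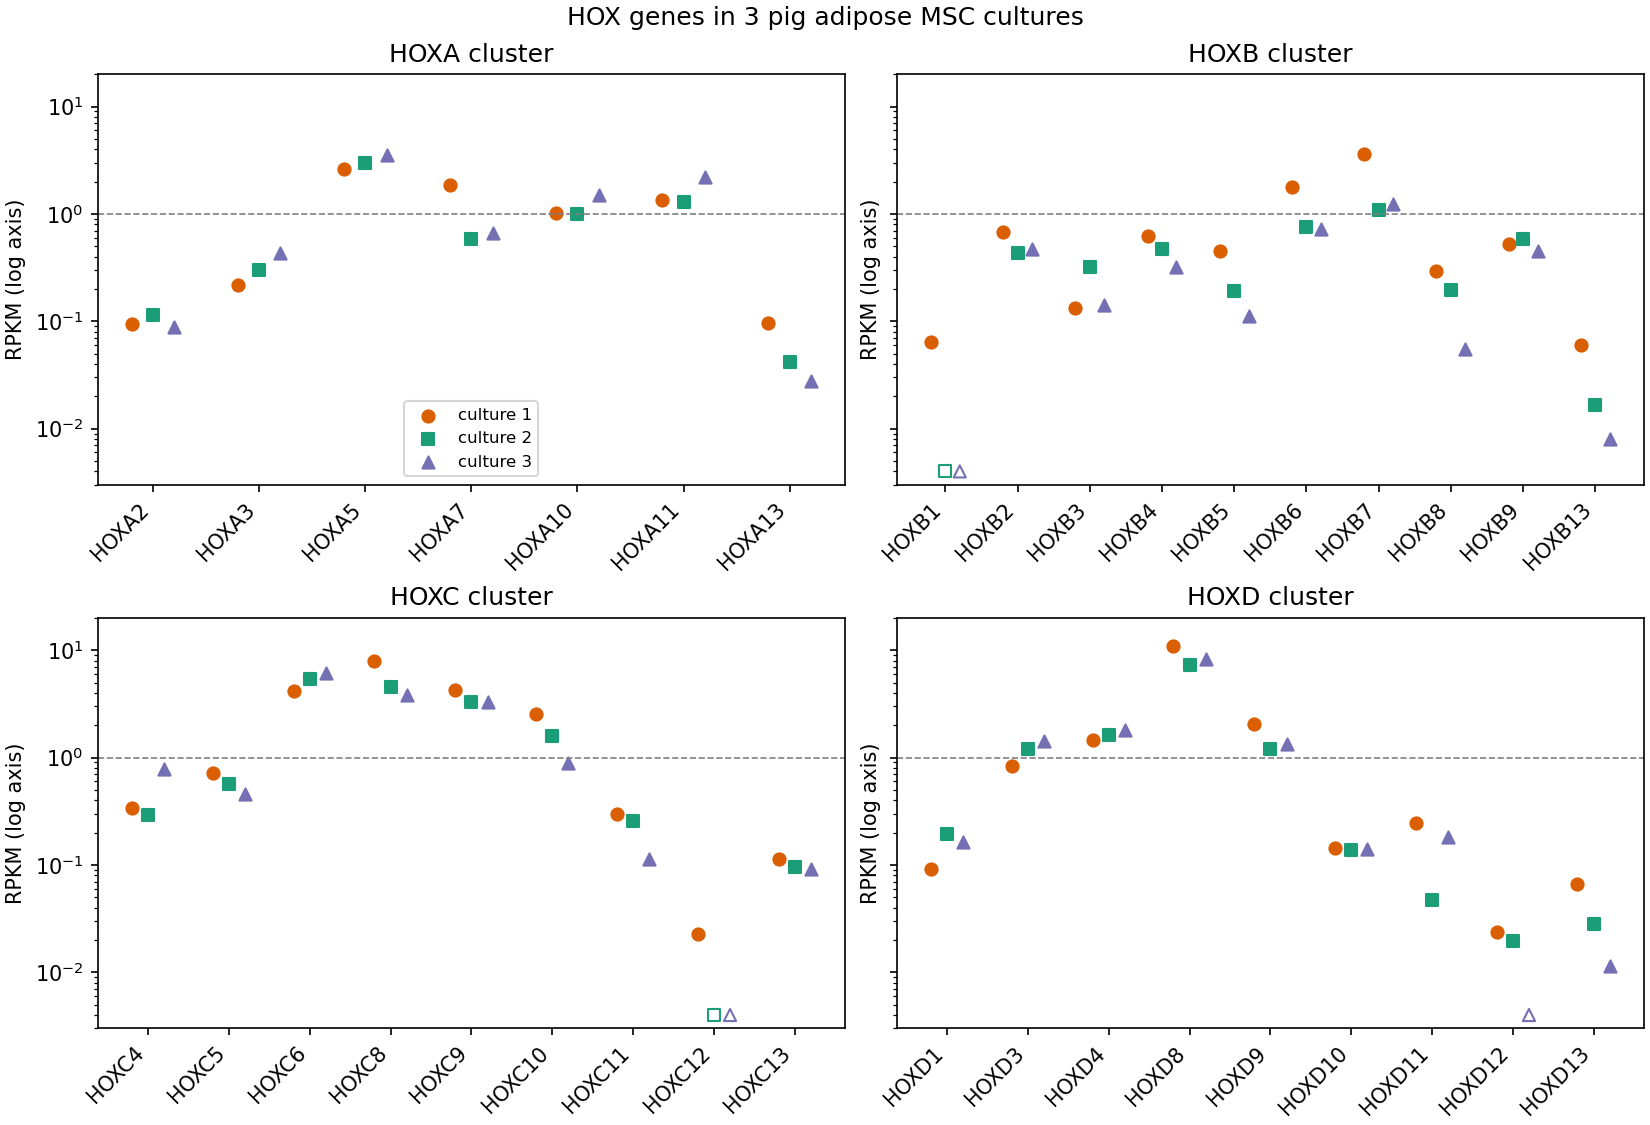
RPKM (log axis) of HOX genes in cultures 1, 2 and 3, by cluster, with a dashed line at 1 RPKM; open symbols at the lower edge mark genes listed at 0. HOXB7, HOXB6 and HOXA7 are higher in culture 1 than in both others, and the order of HOXC6 and HOXC8 turns between culture 1 and culture 3.

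The lowest HOX genes were set against olfactory receptor genes, which are seldom expressed outside the nose. The 95th percentile of the means of 105 such genes was 0.109 RPKM, and 8 HOX genes were at or under it. They were HOXA2, HOXA13, HOXB1, HOXB13, HOXC12, HOXC13, HOXD12 and HOXD13. All 4 members of paralogue group 13 and both of group 12 were thus at the level of that background. The medians of the olfactory receptor genes were 0.0612, 0.0513 and 0 RPKM in cultures 1, 2 and 3.

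Ranked by mean level, neighbouring HOX genes could seldom be told apart by their ranges. The ranges of the 3 cultures overlapped in 34 of 35 pairs of neighbours in the order. Compared within each culture, HOXD8 nevertheless exceeded the next gene, HOXC8, in 3 of 3 cultures. So did HOXA7 over HOXC5, HOXD10 over HOXC13, HOXA13 over HOXD13 and HOXD13 over HOXB13, and no other pair. The members of group 13 among these were at the background level given above. At 1 RPKM or more in all 3 cultures were 9 of the 36 genes, where 32.0% of all genes with a read were (HOXA5, HOXA11, HOXB7, HOXC6, HOXC8, HOXC9, HOXD4, HOXD8 and HOXD9). In single cultures 13, 11 and 11 genes reached it.

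The HOX genes did not all have the same order over the cultures. Of the 14 genes averaging 1 RPKM or more, 8 were highest in culture 1, namely HOXA7, HOXB6, HOXB7, HOXC8, HOXC9, HOXC10, HOXD8 and HOXD9. Another 4 were lowest in culture 1 (HOXA5, HOXC6, HOXD3 and HOXD4), and HOXA10 and HOXA11 lay between. Over all genes of that level 22.3% were highest in culture 1 and 57.0% lowest, and when scaled to protein-coding reads 42.3% were highest and 34.6% lowest. The 8 genes were highest in culture 1 also with median-of-ratios scaling and when scaled to protein-coding reads. HOXC6 and HOXD3 were lowest there under each scaling, but HOXA5 and HOXD4 were not, and HOXD4 was highest in culture 1 when scaled to protein-coding reads.

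Ratios within a library do not depend on its scaling, and the following pairs were chosen after their values were seen. Such ratios can still vary with model length, which moved with the level in culture 1 as given below. In each pair the gene named first has the shorter model, and the part of length in these ratios was not tested. HOXA7 was 0.713, 0.197 and 0.188 times HOXA5 in cultures 1, 2 and 3. HOXD9 was 2.43, 1.01 and 0.936 times HOXD3, and HOXC10 was 0.615, 0.294 and 0.146 times HOXC6. HOXA11 was 0.510, 0.430 and 0.627 times HOXA5, so the highest ratio of that pair was in culture 3.

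The test of spread between cultures made no HOX call, but with 3 cultures it can find only very large spreads, so this says little about how alike the cultures were. It asked, over 10474 genes averaging 1 RPKM or more, whether a gene varied more than others of its level (limma, F test, adjusted over these genes). It called 0 of 14 HOX genes and 0.0% of all genes, and at an unadjusted p under 0.05 it picked 0 HOX genes and 5.93% of all genes. Fitted with voom weights it also called 0 genes. The median SD between cultures was 0.29 for the 14 HOX genes and 0.31 for all genes tested, on the log2(RPKM + 0.5) scale. HOXB7 had the largest SD of them at 0.75 (limma, adjusted p = 0.96).

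The listed length of the gene models moved with these differences. Among protein-coding genes averaging 1 RPKM or more, the median log2 ratio of culture 1 over the mean of cultures 2 and 3 was 0.10 for models under 1 kb and -0.42 for those over 6 kb. The 8 HOX genes highest in culture 1 had a median length of 1748 bases, and the 4 lowest there had 4566 bases, in a range of 1062 to 6609. HOXD4, the shortest of the 4, had a ratio of -0.18, where genes of its length had -0.05. HOXA5 and HOXC6, with 6070 and 6609 bases, had ratios of -0.26 and -0.42, where genes of their length had -0.42. HOXB7 and HOXC8 had 1.30 and 0.84, where genes of their length had -0.05 and -0.17. The part of length, and of the small RNA content of the library of culture 1, in the differences of these HOX genes was not tested.

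**Figure D4:**
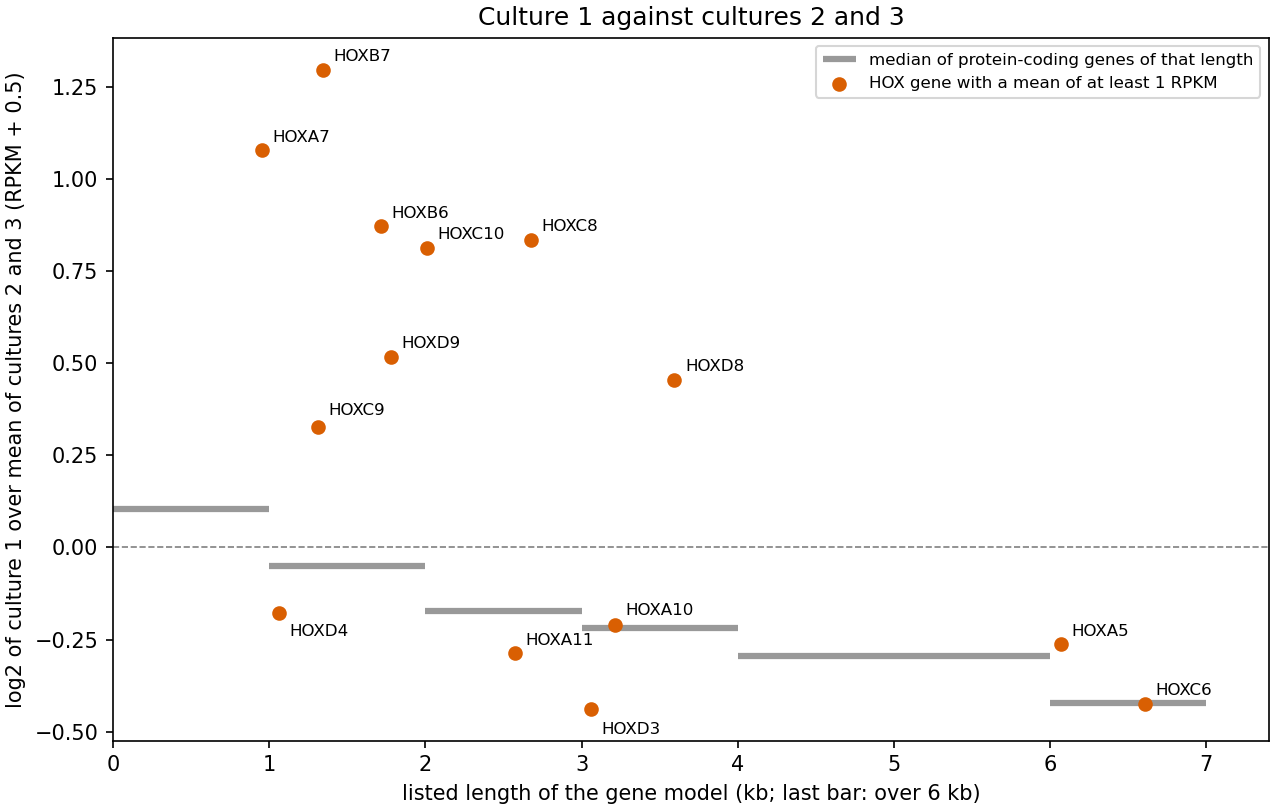
Log2 ratio of culture 1 over the mean of cultures 2 and 3, with 0.5 RPKM added to both, against the listed length of the gene model, for the 14 HOX genes averaging 1 RPKM or more (points). Grey bars are medians of protein-coding genes of the same length class. HOXB7 (1.30) lies furthest above its bar, and HOXA10 (-0.21) and HOXC6 (-0.42) lie on theirs.

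HOX proteins bind DNA together with partners of the PBX, MEIS and PKNOX families. Of 9 such cofactor genes 7 lay above 1 RPKM and 1 below, where 42.0% of protein-coding genes lay above and 47.8% below. Their median was 4.83 RPKM, and among the HOX genes named in the deposited table HOXD8, HOXC8 and HOXC6 had higher means. HOXA9, which is not named there, also had a higher mean (6.27 RPKM). MEIS1, which binds with HOX proteins of posterior groups and with PBX, had 9.27, 15.4 and 15.8 RPKM (13.5 ± 3.66, SD, n = 3). PBX2 had 11.1 ± 1.58 RPKM, PKNOX1 5.03 ± 1.64, MEIS2 4.83 ± 1.37, MEIS3 4.38 ± 1.14 and PBX3 3.59 ± 0.593 (SD, n = 3 each). PBX4 (0.817 ± 0.600) was not decided and PKNOX2 (0.186 ± 0.054) lay below. PBX2 overlaps AGER, whose total reads come to 99.8% of those of PBX2, and how many reads fall in the shared stretch is not known.

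Of 11 flanking genes measured 7 lay above 1 RPKM and 4 below, against 42.0% and 47.8% of protein-coding genes. EVX1 and EVX2, homeobox genes that adjoin the posterior ends of HOXA and HOXD, lay below at means of 0.0278 and 0.0211 RPKM. Beyond them HIBADH averaged 8.36 ± 1.90 RPKM (SD, n = 3) and LNPK had 3.60, 5.92 and 5.49 RPKM, both above. On the anterior side, SKAP2 next to HOXA (5.92 ± 0.372 RPKM) and MTX2 next to HOXD (14.0 ± 0.473) also lay above (SD, n = 3 each). The others above were CALCOCO2, CBX5 (34.9 ± 12.8) and SMUG1 (3.11 ± 0.293), and the others below were SNX10 (0.254 ± 0.071) and SKAP1 (0.080 ± 0.026, SD, n = 3 each).

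Between HOXD4 and HOXD8 lies the hairpin gene of the microRNA miR-10b, listed as MIR10B. It had 13.1, 10.1 and 12.9 RPKM (12.0 ± 1.67, SD, n = 3; limma, adjusted p = 7.3e-14), from 69, 64 and 85 reads. The other hairpin genes in the clusters had few reads. MIR10A had 2, 2 and 4, mir-196b-1 1, 2 and 4, MIR196A-1 0, 1 and 1, mir-196a-2 1, 1 and 0, and mir-615 0, 0 and 1. All 5 lay below 1 RPKM in the limma test. These reads count the gene region and do not measure the mature microRNA.

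Polycomb and trithorax proteins and retinoic acid are known to set HOX expression. Of 20 measured Polycomb and trithorax genes, which keep HOX genes silent or active through chromatin, 17 lay above 1 RPKM and 1 below, again where 42.0% and 47.8% of protein-coding genes did. The highest were PHC2 (25.7 ± 5.50 RPKM), KMT2A (19.3 ± 7.74), a histone methyltransferase that maintains HOX activity, and BMI1 (18.5 ± 2.16, SD, n = 3 each). Of 9 retinoic acid genes 4 lay above and 4 below, near those same shares of 42.0% and 47.8%. The highest were CYP26B1 (29.5 ± 8.51), which degrades retinoic acid, the receptor RARG (12.3 ± 1.61) and ALDH1A3 (9.88 ± 7.64), which makes it. GMNN, whose protein geminin binds HOX proteins, had 2.16 ± 0.084 RPKM (SD, n = 3) and lay above.

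Other genes of position gave a mixed picture. Of 6 ParaHox and caudal genes, the sister group of HOX genes, 0 lay above, 5 below, and GSX2 was listed at 0 in each culture. Of 11 measured limb and body wall genes 7 lay above and 3 below, against 42.0% and 47.8% of protein-coding genes. The highest were PRRX1 (48.6 ± 7.62 RPKM), a gene of limb and trunk mesenchyme, TBX3 (24.4 ± 9.23) and TBX2 (6.32 ± 0.485, SD, n = 3 each). Chosen after their values were seen, TBX5, a gene of the forelimb and heart, had 2.88, 1.71 and 0.489 RPKM and was not decided, while TBX4 and PITX1 of the hindlimb had means of 0.058 and 0.022 RPKM.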

How the data were processed

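The authors deposited RPKM values, 1 column per culture, as the file header states. Per the submitters' processing notes the build was susScr11; aligner, counter and strandedness were not given in the sources used here. Multiplied by the listed length plus 1 base, 100% of the values were whole multiples of 1 step per column, within 0.001 of a read, which gave the read counts quoted. A count of 0 allows up to 3 reads, and this covers counting error only.

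Tests on log2(RPKM + 0.5) used limma 3.58.1 (R 4.3.3), with a trended robust prior, over all genes, with Benjamini-Hochberg adjustment. A fold on this scale understates the change of low genes. The level test set the mean against 1 RPKM, two-sided. The spread test divided the variance between cultures by the prior variance (F test, upper tail). Both were tested on simulated data, where the spread test found few genes unless their spread was very large.

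The HOX members were all entries matching the name rule, and all enter the counts and sums. In other lists the cofactors, flanking genes and microRNA hairpins were to be named, and elsewhere the 3 of highest mean RPKM. The values of 1 member and 1 cofactor are not reported here. Members and lists were chosen with earlier results of these data known. HOTAIR, HOTTIP, HOTAIRM1, PRAC1, CBX7 and TBX15 were not matched by name. RefSeq names and overlaps refer to Sscrofa11.1. Levels compare genes per listed length, and models differ between annotations. Alternatives changed the pseudocount, level, filter, scaling, weights and prior, and left out each culture.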

Additional observations from a re-analysis of the deposited data

How the results depend on the processing

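The main counts were 6 HOX genes above and 22 below 1 RPKM. Against 0.5 RPKM 13 genes lay above, since a lower level is asked, and scaled to protein-coding reads, which raises every value, 10 lay above (HOXA11, HOXC10, HOXD4 and HOXD9 added). Under the other alternatives the count above was between 4 (against 2 RPKM) and 8 (pseudocount of 0.1 RPKM), and the count below between 15 (only genes averaging 0.1 RPKM or more, which removes low members) and 26 (against 2 RPKM). Leaving out a culture gave 6 to 7 above and 17 to 20 below. With HOXA9 and the HOXA4 entry, an alternative chosen after seeing the data, 7 lay above. No HOX gene passed the spread test under any alternative run, while median-of-ratios scaling called 0.134% of all genes and leaving out culture 3 called 1.25%. Of 36 genes 26 kept their call against 1 RPKM in all alternatives that could be fitted. The direction of 2 undecided genes turned. HOXA7 was -0.06 from 1 RPKM on the log2 scale and 0.15 with protein-coding scaling, and -0.42 to 0.15 when a culture was left out, negative only without culture 1. HOXB6 was 0.02, and -0.027 with voom weights and -0.27 to 0.17 when a culture was left out, negative only without culture 1. The cause was not tested. Levels moved by 1 SD or more in 12 of 180 recomputed values, all with protein-coding scaling. No paired analysis was possible because the samples form a single group. Depth limits the silent genes, several of which rest on under 20 reads.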

Other observations

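A pair of unnamed lncRNA entries lies between posterior HOXC genes. ENSSSCG00000046457 (chromosome 5, 19174324 to 19179006), between HOXC12 and HOXC11, had 11, 59 and 3 reads in cultures 1, 2 and 3, which is 0.0731, 0.326 and 0.0159 RPKM. Its neighbours HOXC12 (1, 0 and 0 reads) and HOXC11 (32, 33 and 15 reads) were not highest in culture 2 by RPKM. ENSSSCG00000044335 (chromosome 5, 19206548 to 19209212), between HOXC10 and HOXC9, had 34, 19 and 11 reads, or 0.451, 0.209 and 0.117 RPKM. Its order over the cultures is that of both neighbours, HOXC10 (2.55, 1.57 and 0.897 RPKM) and HOXC9 (4.24, 3.30 and 3.26 RPKM). The order is not particular to them, since HOXC5, HOXC8 and HOXC11 had it too by RPKM, while HOXC4 and HOXC6 did not. HOXC13 also had it by RPKM, but its 6 reads in each culture do not order the cultures. Both entries lay below 1 RPKM in the limma test (adjusted p = 2.3e-10 and 3.0e-06).

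The listed gene models bear on the low members. The deposited HOXB3 entry covers 8.74% of the span that RefSeq gives this gene, the HOXC4 entry 17.8%, the HOXB8 entry 19.2% and the HOXD9 entry 13.5%, so reads elsewhere in those spans are not in their values. The HOXD10 entry lies wholly inside RefSeq's spans of both HOXD9 and HOXD10, and 94.3% of the HOXB9 entry lies inside RefSeq's HOXB8. Reads given to HOXD10 and HOXB9 may therefore include those of HOXD9 and HOXB8. The HOXA3 entry covers 26.65% of RefSeq's span of HOXA3, which also contains the HOXA5 entry, so HOXA3 reads may be given to HOXA5. An unnamed pseudogene entry, ENSSSCG00000047569, lies inside RefSeq's HOXB3 and had 0.817, 1.02 and 0.746 RPKM, from 14, 21 and 16 reads.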
